A study of Mus musculus with 9 samples.

Results

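Transcription factors of the limb bud mesenchyme, together with 3 companion genes of the same tissue, were followed in sorted cells of the mouse forelimb bud at E10.5. The 34 genes comprise 31 transcription factor genes, the kinase gene Pkdcc, the ankyrin repeat gene Asb4 and the receptor gene Pdgfra, out of 18193 genes that the arrays represent with a probe set of 1 gene symbol. They were chosen by symbol, and where a gene has several probe sets the brightest is meant, by its mean over the 9 Affymetrix Mouse430_2 arrays. The members have 71 such probe sets in all. The cells fell into 3 groups, with 3 arrays each, numbered 1 to 3 by replicate. PAX3-FKHR GFP+ cells came from Pax3PAX3-FKHR/GFP embryos, in which 1 allele of Pax3 encodes the fusion of PAX3 to the activation domain of FKHR and the other encodes GFP. That allele had been switched on by a PGK-Cre transgene, whose promoter is broadly active, and these embryos have no normal Pax3 allele. Control GFP+ cells came from Pax3GFP/+ embryos, which keep 1 functional copy of Pax3, so the controls are heterozygous for Pax3 as well. GFP- cells are the fraction of dissociated forelimb buds without GFP fluorescence, and the sample labels do not give their genotype, which the study's text gives as Pax3GFP/+ in one place and, by its list of array groups, as Pax3+/+ in another. Forelimb buds of many embryos were pooled before sorting. A replicate is therefore a pool of embryos, and the study's methods call the 3 arrays of a group biological replicates.

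The mesenchyme of the limb bud arises from the lateral plate mesoderm, while the muscle progenitors that enter it delaminate from the somites under the control of Pax3. Positional identity in the mesenchyme is laid down by transcription factors: Tbx5 opens the forelimb field, Meis factors mark the proximal part, Hand2 and Alx4 act at the posterior and anterior margins, Lmx1b specifies dorsal fate, and Lhx2, Lhx9 and Msx factors act distally beneath the apical ectodermal ridge. Prrx, Shox2, Twist and Osr factors govern the growth of the mesenchyme and the formation of its skeleton and connective tissue. The comparison of control GFP+ with GFP- cells shows which of these genes have lower transcript levels in the sorted progenitors than in the remaining limb cells. The comparison of PAX3-FKHR GFP+ with control GFP+ cells shows which of them change in the gain of function background.

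All values are log2 RMA values, in which 1 unit is a doubling of the probe set signal. A probe set was called higher or lower at an adjusted p under 0.05 (limma, Benjamini-Hochberg over 45037 probe sets) and a log2 fold change of 0.5 or more in size. Fold changes are PAX3-FKHR GFP+ minus control GFP+, control GFP+ minus GFP-, or PAX3-FKHR GFP+ minus GFP-. The 3 comparisons share arrays and are not independent of each other. Of 8 myogenic progenitor markers, 8 were called higher in control GFP+ relative to GFP- cells, with a median log2 fold change of 3.86, and 4 of 7 muscle differentiation markers were (7 of 7 without GFP- array 3). Control GFP+ array 3 stood apart from the other arrays on the second principal component, at -71.9 against a range of -16.3 to 26.8. GFP- array 3 deviated by -1.04 on average over the 7 muscle differentiation markers, against -2.70 and -2.79 on GFP- arrays 1 and 2.

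Limb mesenchyme genes were for the most part lower in control GFP+ cells than in the GFP- fraction. Of the 34 members, 21 (61.8%) were called lower, 1 was called higher and 12 did not pass the test. Among the 18193 genes, 1.93% were called lower and 2.79% higher. The members were chosen with earlier results of these data known, so these shares are a description and not a test. The median log2 fold change of the members was -1.38, and that of all genes was 0.083. For 24 members all control GFP+ arrays lay below all GFP- arrays, and for 3 they lay above, against 6.96% and 17.2% of all genes. The transcription factors alone gave the same picture, with 19 of 31 called lower. Markers of other cell types moved in the same comparison: 3 of 4 neural crest and glia markers (median log2 fold change 1.76) and 3 of 6 neuron markers (median 1.53) were called higher in control GFP+ cells, and their part in the member values was not tested. In sorted pools, fewer mesenchymal cells and less RNA per cell cannot be told apart. The array values contain no detection calls, so the lower genes are described as lower in the progenitors and not as absent from them.

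**Figure D1:**
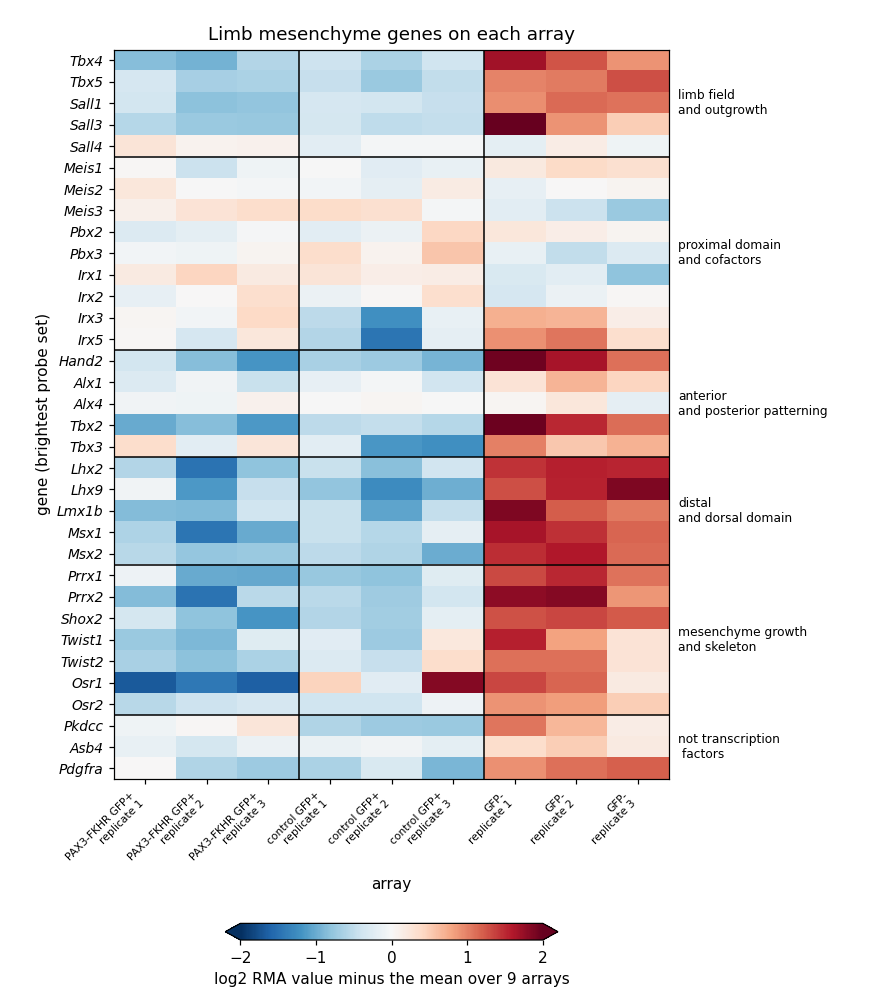
Log2 RMA value of each limb mesenchyme gene (rows, grouped by role) on each array (columns, by group), minus its mean over the 9 arrays. The GFP- columns are red for most genes outside the proximal group, whereas the Meis1, Meis2, Pbx2, Irx2, Alx4 and Sall4 rows vary little, and Osr1 is at its lowest on the PAX3-FKHR GFP+ arrays.

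Genes of the limb field were lower in control GFP+ relative to GFP- cells for 4 of 5 members. Tbx5, the T-box factor required for forelimb initiation, was at 7.66, 7.33 and 7.36 on the PAX3-FKHR GFP+ arrays, 7.53, 7.26 and 7.51 on the control GFP+ arrays, and 8.98, 9.04 and 9.29 on the GFP- arrays. Both GFP+ groups overlapped and lay below every GFP- array, and the log2 fold change of control GFP+ cells was -1.67 (standard error, SE, 0.16, adjusted p = 0.000272). The second Tbx5 probe set was also called lower, at -1.25 (adjusted p = 0.00181). Tbx4, the hindlimb counterpart of Tbx5, was at 4.50, 4.40 and 4.77 with PAX3-FKHR, 4.93, 4.71 and 4.95 in control GFP+ cells and 7.03, 6.61 and 6.25 in GFP- cells. The log2 fold change of control GFP+ cells was -1.77 (SE 0.19, adjusted p = 0.000646), but on the other Tbx4 probe set it was -0.53 (adjusted p = 0.21) and did not pass the test. Pitx1, a hindlimb determinant that was looked up after the Tbx4 values were seen, was at 4.93 ± 0.048 with PAX3-FKHR, 4.93 ± 0.13 in control GFP+ cells and 4.83 ± 0.075 in GFP- cells (mean ± SD, n = 3 each).

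Sall genes, which encode zinc finger factors of limb outgrowth, differed among themselves. Sall1 was at 6.48, 6.02 and 6.06 with PAX3-FKHR, 6.50, 6.47 and 6.38 in control GFP+ cells and 7.77, 7.97 and 7.93 in GFP- cells. The GFP- arrays did not overlap with either GFP+ group, and the log2 fold change of control GFP+ cells was -1.44 (SE 0.15, adjusted p = 0.00062). The other Sall1 probe set was at -0.50 (adjusted p = 0.1). Sall3 was lower in control GFP+ relative to GFP- cells by a log2 fold change of -1.57 (SE 0.31, adjusted p = 0.0146), with a spread in GFP- cells (SD 0.783) that was the largest of any member in that group. Its second probe set was called lower too, at -1.86 (adjusted p = 0.00211). Sall4, also known for its role in stem cells, was at 8.42 ± 0.11 with PAX3-FKHR, 8.18 ± 0.10 in control GFP+ cells and 8.23 ± 0.17 in GFP- cells. The difference of control GFP+ from GFP- cells was -0.05 (adjusted p = 0.854) for Sall4.

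Among genes of the anterior and posterior limb bud, 4 of 5 were called lower in control GFP+ relative to GFP- cells. Hand2, a basic helix-loop-helix factor of the posterior mesenchyme that acts upstream of Sonic hedgehog, was at 7.97, 7.49 and 7.16 with PAX3-FKHR, 7.69, 7.62 and 7.41 in control GFP+ cells and 10.29, 9.99 and 9.44 in GFP- cells. The GFP+ groups overlapped with each other and not with the GFP- arrays. Control GFP+ minus GFP- cells was -2.33 (SE 0.25, adjusted p = 0.000601), a level 5.04-fold lower in control GFP+ cells. The other Hand2 probe sets were not called, at -0.29 (adjusted p = 0.453) and 0.22 (adjusted p = 0.316). Tbx2, a T-box repressor expressed at the limb margins, was at 5.05, 5.21 and 4.92 with PAX3-FKHR, 5.54, 5.59 and 5.49 in control GFP+ cells and 8.03, 7.57 and 7.19 in GFP- cells. All 3 groups were separate for Tbx2, with the PAX3-FKHR GFP+ arrays lowest and the GFP- arrays highest. Its log2 fold change in control GFP+ against GFP- cells was -2.05 (SE 0.19, adjusted p = 0.000288).

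Alx1 and Alx4 are aristaless-related homeobox genes, and Alx4 restrains posterior identity at the anterior margin. Alx1 was called lower in control GFP+ relative to GFP- cells, at -0.65 (SE 0.16, adjusted p = 0.0364). The Alx1 call was lost without control GFP+ array 1, 2 or 3 or GFP- array 2 or 3 (adjusted p between 0.0534 and 0.12), and its other probe set was at -0.13 (adjusted p = 0.377). Alx4 was at 4.11 ± 0.094 with PAX3-FKHR, 4.14 ± 0.029 in control GFP+ cells and 4.16 ± 0.20 in GFP- cells, and no difference was detected among these low values. It was the only member that failed both filters on low values tried as alternatives.

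Distal and dorsal genes were called lower in control GFP+ relative to GFP- cells for 5 of 5 members, with log2 fold changes between -2.58 and -1.82. Lhx9, a LIM homeodomain factor of the distal mesenchyme, was at 7.89, 6.81 and 7.50 with PAX3-FKHR, 7.16, 6.69 and 6.98 in control GFP+ cells and 9.25, 9.49 and 9.83 in GFP- cells. The GFP- arrays lay above all GFP+ arrays, and PAX3-FKHR GFP+ array 2 was as low as the control GFP+ arrays. The log2 fold change of control GFP+ cells was -2.58 (SE 0.27, adjusted p = 0.000503), a level 5.98-fold lower. All 4 probe sets of Lhx9 were called lower, between -3.40 and -1.11. Lhx2, a LIM homeodomain factor that acts with Lhx9 in distal outgrowth, was at 5.86, 4.98 and 5.64 with PAX3-FKHR, 6.01, 5.61 and 6.06 in control GFP+ cells and 7.90, 8.01 and 7.98 in GFP- cells. The GFP- arrays of Lhx2 had the smallest spread of any member in that group (SD 0.0553), and the log2 fold change of control GFP+ cells was -2.07 (SE 0.22, adjusted p = 0.000594).

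Msx genes encode homeodomain factors that respond to BMP signals in the distal mesenchyme. Msx2 had the smallest adjusted p of the members for control GFP+ against GFP- cells. Its values were 6.37, 6.14 and 6.17 with PAX3-FKHR, 6.39, 6.32 and 5.92 in control GFP+ cells and 8.40, 8.52 and 8.05 in GFP- cells. The GFP+ groups overlapped for Msx2, and both lay below all GFP- arrays. The log2 fold change of control GFP+ cells was -2.11 (SE 0.18, adjusted p = 0.000146). Msx1 was at 7.61, 6.77 and 7.21 with PAX3-FKHR, 7.78, 7.65 and 8.05 in control GFP+ cells and 9.87, 9.68 and 9.39 in GFP- cells. The groups were in the order PAX3-FKHR GFP+, control GFP+ and GFP- without overlap, and the log2 fold change of control GFP+ against GFP- cells was -1.82 (SE 0.22, adjusted p = 0.0013). Lmx1b, the dorsal determinant, was at 6.60 ± 0.28 with PAX3-FKHR, 6.66 ± 0.35 in control GFP+ cells and 8.69 ± 0.44 in GFP- cells. Its log2 fold change in control GFP+ against GFP- cells was -2.03 (adjusted p = 0.00153), but its other probe set was at -0.01 (adjusted p = 0.977).

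Promoter sequences of RefSeq (build GRCm38.p6) were available for 22 members, with 26 start sites, as windows of 300 bases from 250 before to 50 after the start. Windows are shown for Msx2 and Lhx9, which had the smallest adjusted p for control GFP+ against GFP- cells among members with a single start site. Pkdcc is shown because it had a probe set called with PAX3-FKHR. Tbx3, which also had such calls, had no window available. The core motif of homeodomain factors, TAAT or its reverse complement ATTA, is in capitals, and where both overlap both were counted. It was found in 14 of the 26 member windows (53.8%) and in 58.0% of 32851 promoters of the same length, so that its share in the members is close to that of all genes. Lhx9 has 2 matches, Msx2 has 5 and Pkdcc has 0. The windows, each written 5′ to 3′ on the strand of the gene, are at chr1:138842395-138842694 on the minus strand for Lhx9, chr13:53472731-53473030 on the minus strand for Msx2 and chr17:83215033-83215332 on the plus strand for Pkdcc. A match is a description of the letters and not a binding site.
Lhx9 promoter: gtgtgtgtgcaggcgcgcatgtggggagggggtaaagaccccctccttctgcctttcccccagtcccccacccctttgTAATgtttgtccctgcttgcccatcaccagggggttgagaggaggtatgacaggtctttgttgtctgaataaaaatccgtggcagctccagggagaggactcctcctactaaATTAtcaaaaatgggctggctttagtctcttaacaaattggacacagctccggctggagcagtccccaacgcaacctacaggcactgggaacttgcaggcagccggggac
Msx2 promoter: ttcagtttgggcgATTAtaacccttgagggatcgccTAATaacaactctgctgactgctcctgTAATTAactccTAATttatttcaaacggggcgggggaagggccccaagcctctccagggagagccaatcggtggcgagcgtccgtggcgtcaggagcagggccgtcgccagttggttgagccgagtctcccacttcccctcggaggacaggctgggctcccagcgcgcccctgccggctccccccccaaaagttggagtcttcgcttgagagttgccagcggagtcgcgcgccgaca
Pkdcc promoter: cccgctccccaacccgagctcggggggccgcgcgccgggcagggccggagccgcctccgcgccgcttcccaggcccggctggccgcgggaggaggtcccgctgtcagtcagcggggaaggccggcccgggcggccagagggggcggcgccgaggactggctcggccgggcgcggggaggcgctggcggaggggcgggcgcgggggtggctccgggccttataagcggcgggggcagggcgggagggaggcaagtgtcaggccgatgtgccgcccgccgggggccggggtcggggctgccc

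Genes of mesenchyme growth and skeleton formation were called lower in control GFP+ relative to GFP- cells for 4 of 7 members. Shox2, a homeobox gene needed for the upper limb skeleton, was at 9.34, 8.89 and 8.52 with PAX3-FKHR, 9.11, 9.0 and 9.51 in control GFP+ cells and 10.97, 11.03 and 10.92 in GFP- cells. The 3 GFP- arrays were nearly equal and lay above all GFP+ arrays, and the log2 fold change of control GFP+ cells was -1.77 (SE 0.21, adjusted p = 0.00103). Prrx1, a paired-related homeobox gene that marks limb mesenchyme, was at 9.09 ± 0.53 with PAX3-FKHR, 9.20 ± 0.31 in control GFP+ cells and 11.11 ± 0.21 in GFP- cells. Its log2 fold change in control GFP+ against GFP- cells was -1.91 (adjusted p = 0.00215), and 5 of its 6 probe sets were called lower. The related gene Prrx2 had a log2 fold change of -2.04 (adjusted p = 0.0029). Osr2, an odd-skipped factor of connective tissue and joints, was lower by -1.04 (adjusted p = 0.00286) in control GFP+ than in GFP- cells.

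Twist1 and Twist2, basic helix-loop-helix factors of mesenchyme, did not pass the test in control GFP+ against GFP- cells. Twist1 was at 8.24, 8.08 and 8.74 with PAX3-FKHR, 8.75, 8.26 and 9.19 in control GFP+ cells and 10.54, 9.79 and 9.25 in GFP- cells. Control GFP+ array 3 and GFP- array 3 were nearly equal, and the log2 fold change was -1.12 (adjusted p = 0.0772). Twist2 was at 7.17, 7.0 and 7.18 with PAX3-FKHR, 7.54, 7.35 and 8.16 in control GFP+ cells and 8.92, 8.92 and 8.09 in GFP- cells, and here the same pair of arrays overlapped, with a log2 fold change of -0.96 (adjusted p = 0.0579). Without GFP- array 3, Twist1 was called lower at -1.43 (adjusted p = 0.0418) and Twist2 at -1.23 (adjusted p = 0.0198). Without control GFP+ array 3, Twist2 was called lower at -1.2 (adjusted p = 0.0211). With both of these arrays left out, Twist1 was at -1.66 (adjusted p = 0.0213), Twist2 at -1.47 (adjusted p = 0.00127) and Osr1 at -1.14 (adjusted p = 0.026), in a fit that was chosen once the values were known. The mean deviation of the 7 genes of this group from their means was -0.34, -0.57 and 0.21 on the control GFP+ arrays and 1.32, 1.23 and 0.63 on the GFP- arrays.

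Of the 3 companions that are not transcription factors, Pdgfra, the receptor of platelet-derived growth factor on mesenchyme, was called lower in control GFP+ relative to GFP- cells, at -1.69 (SE 0.21, adjusted p = 0.00139). All 3 of its probe sets were called lower, between -2.47 and -1.69. Asb4 was at 11.25 ± 0.12 with PAX3-FKHR, 11.32 ± 0.065 in control GFP+ cells and 11.81 ± 0.16 in GFP- cells. The difference of control GFP+ from GFP- cells, -0.48 (adjusted p = 0.0285), was short of the fold change threshold, and without GFP- array 3 it was called lower at -0.56 (adjusted p = 0.0284).

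Among proximal genes and their cofactors, 2 of 9 (22.2%) were called lower and 1 (11.1%) higher in control GFP+ relative to GFP- cells. The share called lower was the smallest of any role group. Of all genes, 1.93% were called lower and 2.79% higher. Irx3 and Irx5, Iroquois homeobox genes of the early proximal and anterior limb bud, were the lower pair. Irx3 was at 9.06, 8.96 and 9.42 with PAX3-FKHR, 8.49, 7.79 and 8.88 in control GFP+ cells and 9.73, 9.70 and 9.16 in GFP- cells. Control GFP+ array 2 was the lowest array, and the log2 fold change of control GFP+ cells was -1.14 (SE 0.27, adjusted p = 0.0323). Without control GFP+ array 2 it was -0.85 (adjusted p = 0.0777), and the call was also lost without control GFP+ array 1 or GFP- array 1 or 2 (adjusted p between 0.0693 and 0.108). Irx5 was at 7.87, 7.50 and 8.07 with PAX3-FKHR, 7.25, 6.39 and 7.66 in control GFP+ cells and 8.75, 8.92 and 8.18 in GFP- cells. Replicate 2 of the control GFP+ cells was again lowest, the log2 fold change was -1.52 (SE 0.31, adjusted p = 0.0185), and the call was lost without GFP- array 1 or 2 (adjusted p = 0.0685 and 0.0723). Irx1 and Irx2 had values above 0, at 0.62 (adjusted p = 0.051) and 0.23 (adjusted p = 0.485).

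Pbx3, a homeodomain cofactor of Meis and Hox proteins, was the only member called higher in control GFP+ relative to GFP- cells. It was at 9.88, 9.85 and 9.99 with PAX3-FKHR, 10.29, 10.01 and 10.49 in control GFP+ cells and 9.79, 9.44 and 9.66 in GFP- cells. The control GFP+ arrays lay above all others, and the log2 fold change against GFP- cells was 0.64 (SE 0.15, adjusted p = 0.0314). The second probe set gave 0.63 (adjusted p = 0.0314). The call of the first was lost without control GFP+ array 1 or 3 or GFP- array 2 or 3 (adjusted p between 0.059 and 0.107), and that of the second without control GFP+ array 1, 2 or 3 or GFP- array 2 or 3 (adjusted p between 0.0536 and 0.104). Meis3 was at 0.68 (adjusted p = 0.052) and was called higher without control GFP+ array 3, at 0.81 (adjusted p = 0.0263). Pbx2 was at -0.11 (adjusted p = 0.76).

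For Meis1 and Meis2, homeodomain factors of the proximal limb bud, the result depended on the probe set. The brightest Meis1 probe set was at 8.88, 8.43 and 8.78 with PAX3-FKHR, 8.85, 8.63 and 8.71 in control GFP+ cells and 9.05, 9.25 and 9.18 in GFP- cells. It had a log2 fold change of -0.43 (adjusted p = 0.129) in control GFP+ against GFP- cells. Probe set 1443260_at of Meis1 was at 7.81, 6.70 and 7.46 with PAX3-FKHR, 7.55, 6.60 and 7.25 in control GFP+ cells and 9.16, 8.84 and 9.04 in GFP- cells, and it was called lower at -1.88 (adjusted p = 0.00534). Both probe sets put every GFP+ array below every GFP- array, so they differed in the size of the difference. The brightest Meis2 probe set was at 0.01 (adjusted p = 0.968). Probe set 1440091_at of Meis2 was at 7.81, 6.49 and 7.15 with PAX3-FKHR, 6.93, 5.99 and 6.58 in control GFP+ cells and 8.15, 8.33 and 9.03 in GFP- cells, and it was called lower at -2.01 (adjusted p = 0.00929). Which transcripts these probe sets detect was not examined here.

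**Figure D2:**
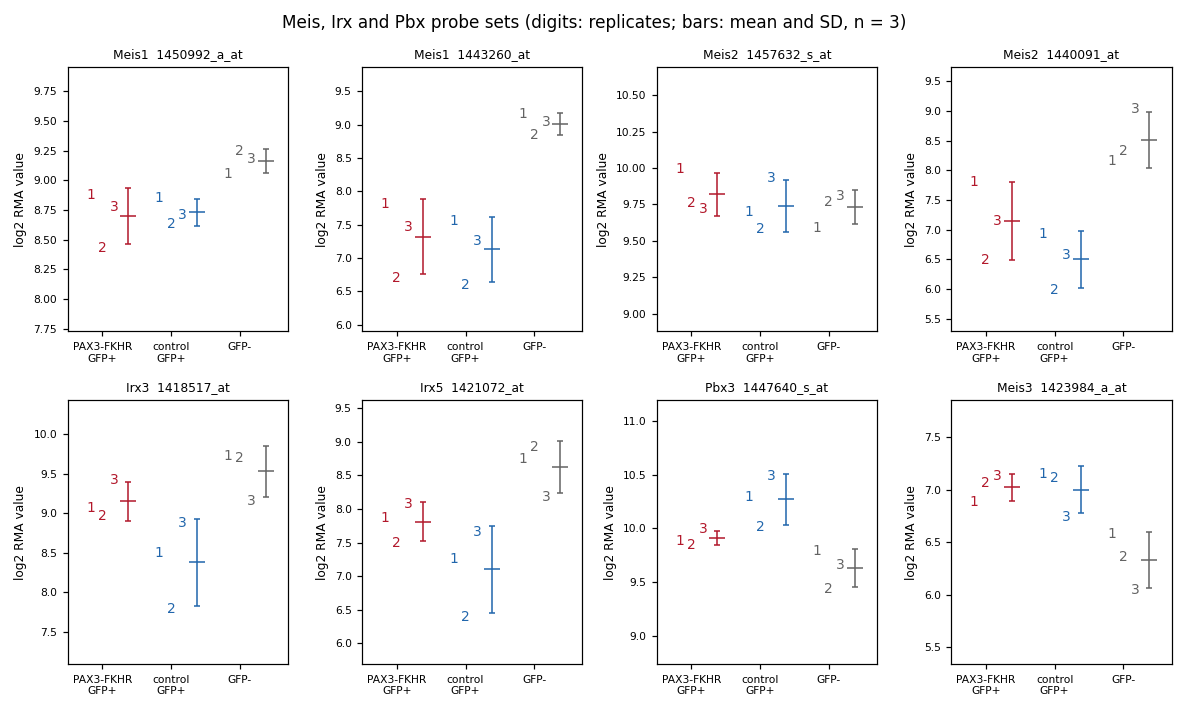
Log2 RMA values of Meis, Irx and Pbx probe sets on each of the 9 arrays, with the replicate number as the symbol and bars for mean and SD (n = 3 per group); the vertical axes differ between panels. On 1443260_at and 1440091_at the GFP- arrays lie above all GFP+ arrays, while on the brightest Meis2 probe set the 3 groups overlap.

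Over all probe sets of the members, 38 of 71 were called lower in control GFP+ relative to GFP- cells and 2 were called higher, both of Pbx3, against 4.01% lower and 1.84% higher among the 45037 probe sets. In total, 22 members have more than 1 probe set, up to 6. No member had probe sets called in opposite directions in any comparison. Dim probe sets, such as those of Msx2 and Osr2 near 3 on all arrays, showed differences close to 0.

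**Figure D3:**
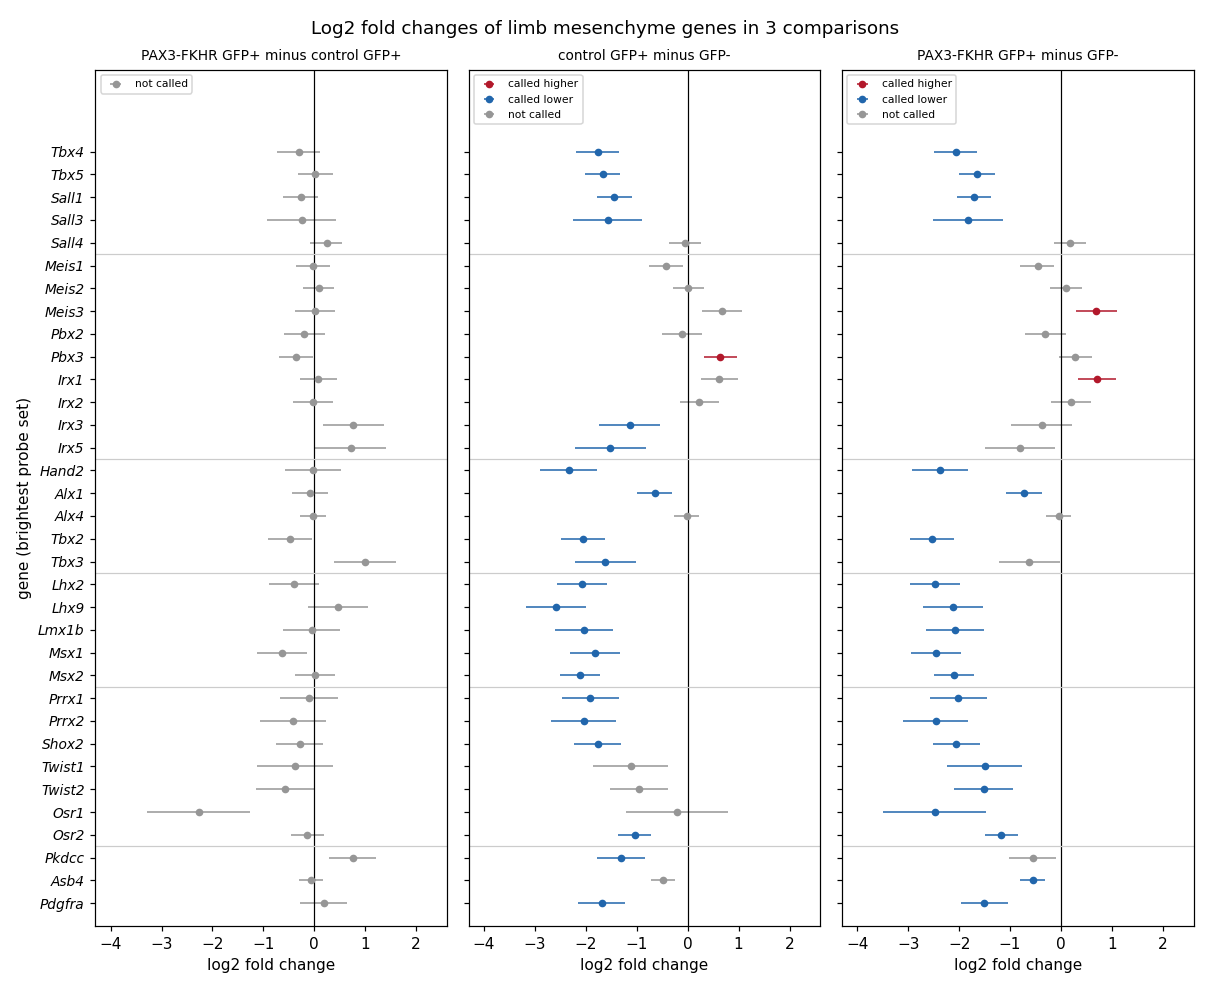
Log2 fold change of each member in the 3 comparisons, as the difference of group means (point) with its 95% confidence interval (line). In PAX3-FKHR GFP+ minus control GFP+ no point is coloured as called, and the points of most genes lie left of 0 in both comparisons with GFP- cells.

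With PAX3-FKHR, no limb mesenchyme gene passed the test on its brightest probe set relative to control GFP+ cells. Of the 34 members, 0 were called higher and 0 lower by limma, against 0.610% and 0.203% of all genes, and the local pooled error test, which borrows the error from probe sets of like intensity, called 1 higher (Tbx3) and 1 lower (Osr1). With a block for the replicate number on the 6 arrays compared, limma called 0 higher and 1 lower, Osr1 (adjusted p = 0.0283), and without control GFP+ array 2 it called Osr1 lower as well (adjusted p = 0.0253). At an unadjusted p under 0.05, 4 were higher (Tbx3, Pkdcc, Irx3 and Irx5) and 4 lower (Osr1, Msx1, Tbx2 and Pbx3). The share of all genes at that level was not counted, so these genes are named without a call. The median log2 fold change was -0.06, close to -0.03 for all genes. The PAX3-FKHR GFP+ arrays were entirely above those of the control GFP+ cells for 4 members and entirely below for 6, against 5.42% and 8.88% of all genes. Over the 71 probe sets 3 were called higher and 0 lower, against 0.395% and 0.142% of all probe sets. These 3 belong to Tbx3 and Pkdcc.

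Tbx3, a T-box repressor of the anterior and posterior limb margins, was called higher with PAX3-FKHR on 2 of its 5 probe sets. Probe set 1448029_at was at 8.12, 8.52 and 8.33 with PAX3-FKHR, 7.25, 7.09 and 7.02 in control GFP+ cells and 8.14, 7.67 and 7.87 in GFP- cells. The PAX3-FKHR GFP+ arrays lay above the control GFP+ arrays by more than the spread within either group and overlapped with the GFP- arrays. The log2 fold change with PAX3-FKHR was 1.2 (SE 0.17, adjusted p = 0.0112), a level 2.30-fold higher, and the call was lost without PAX3-FKHR GFP+ array 2 or 3 (adjusted p = 0.0713 and 0.056).

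Probe set 1437479_x_at of Tbx3, of a class whose probes can also match other transcripts, was at 8.47, 8.36 and 7.77 with PAX3-FKHR, 7.09, 6.68 and 5.76 in control GFP+ cells and 7.49, 7.13 and 7.31 in GFP- cells. Within each GFP+ group array 3 was the lowest, and the groups did not overlap. Its log2 fold change with PAX3-FKHR was 1.69 (SE 0.31, adjusted p = 0.0474), and the call was lost without PAX3-FKHR GFP+ array 1, 2 or 3 or control GFP+ array 2 or 3 (adjusted p between 0.0561 and 0.212). This call was also lost with renewed quantile normalization, without the trend and with only the 6 arrays compared (adjusted p = 0.0571, 0.0668 and 0.184). On the brightest Tbx3 probe set, 1445757_at, the values were 8.17, 7.62 and 8.06 with PAX3-FKHR, 7.61, 6.66 and 6.60 in control GFP+ cells and 8.83, 8.36 and 8.52 in GFP- cells. The PAX3-FKHR GFP+ arrays again lay above the control GFP+ arrays, though by 0.01 for the closest pair, with a log2 fold change of 0.99 (95% confidence interval 0.39 to 1.60, adjusted p = 0.269). The remaining Tbx3 probe sets were dim and had differences of 0.05 and 0.11.

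Against GFP- cells the order of the PAX3-FKHR GFP+ group depended on the Tbx3 probe set. Control GFP+ cells were lower on 1445757_at, at -1.62 (adjusted p = 0.007), and on 1448029_at, at -0.77 (adjusted p = 0.023), and the second of these calls was lost without control GFP+ array 2 or GFP- array 1 or 3 (adjusted p between 0.0594 and 0.0822). PAX3-FKHR GFP+ cells differed from GFP- cells by -0.62 on 1445757_at (adjusted p = 0.231), by 0.43 on 1448029_at (adjusted p = 0.168) and by 0.89 on 1437479_x_at (adjusted p = 0.126). Tbx3 and Osr1 are among the genes that the study selected on these same arrays, so their array values are not independent evidence of direction. For Tbx3 the study also shows in situ hybridization of gain and partial loss of function embryos. It reports that the somite level depended positively on Pax3. In the forelimb bud, it states, strong expression of Tbx3 in the posterior mesenchyme hid that of the progenitors.

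Pkdcc encodes a secreted kinase of the limb mesenchyme that is needed for bone growth. On 1454838_s_at it was at 9.02, 9.25 and 9.60 with PAX3-FKHR, 8.46, 8.30 and 8.42 in control GFP+ cells and 9.82, 9.62 and 9.48 in GFP- cells. The control GFP+ arrays lay below all others. Its log2 fold change with PAX3-FKHR was 0.90 (SE 0.17), and at an adjusted p of 0.05, just under the threshold before rounding, it was called higher. With a block for the replicate number the adjusted p was 0.117 on all arrays and 0.0526 on the 6 arrays compared, and whichever of the 6 arrays was left out the call was lost (adjusted p between 0.0559 and 0.178). By the local pooled error test the difference was 0.83 (adjusted p = 0.206) and was not called. The limma call was also lost with median centring, renewed quantile normalization and only the 6 arrays compared (adjusted p = 0.051, 0.0625 and 0.146). The brightest probe set, 1460411_s_at, was at 9.05, 9.16 and 9.37 with PAX3-FKHR, 8.53, 8.41 and 8.39 in control GFP+ cells and 10.21, 9.79 and 9.28 in GFP- cells. It had the same order of groups and a log2 fold change of 0.75 with PAX3-FKHR (95% confidence interval 0.28 to 1.21, adjusted p = 0.294). In control GFP+ against GFP- cells both probe sets were called lower, at -1.31 (adjusted p = 0.00555) for the brightest and -1.25 (adjusted p = 0.00221) for the other.

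Osr1, an odd-skipped zinc finger gene of lateral plate derivatives and limb connective tissue, had the largest difference between PAX3-FKHR GFP+ and control GFP+ cells of any member. It was at 4.37, 4.62 and 4.41 with PAX3-FKHR, 6.50, 5.82 and 7.89 in control GFP+ cells and 7.38, 7.21 and 6.23 in GFP- cells. The PAX3-FKHR GFP+ arrays were close to each other and below all other arrays, whereas the control GFP+ arrays spread over about 2 units (SD 1.05, the largest of any member) and overlapped with the GFP- arrays. The log2 fold change with PAX3-FKHR was -2.27 (SE 0.46, 95% confidence interval -3.28 to -1.26, adjusted p = 0.0736), which did not pass the test. The PAX3-FKHR GFP+ values lay below the median of all array values, 5.108. With a block for the replicate number on the 6 arrays compared, Osr1 was called lower (adjusted p = 0.0283), as it was without control GFP+ array 2, at -2.73 (adjusted p = 0.0253), and with array weights, at -1.94 (adjusted p = 0.00797). Without control GFP+ array 3, the highest array, it was not called. Osr1 was lower with PAX3-FKHR than in GFP- cells, at -2.48 (SE 0.46, adjusted p = 0.00865), and in control GFP+ against GFP- cells it was at -0.21 (adjusted p = 0.824).

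**Figure D4:**
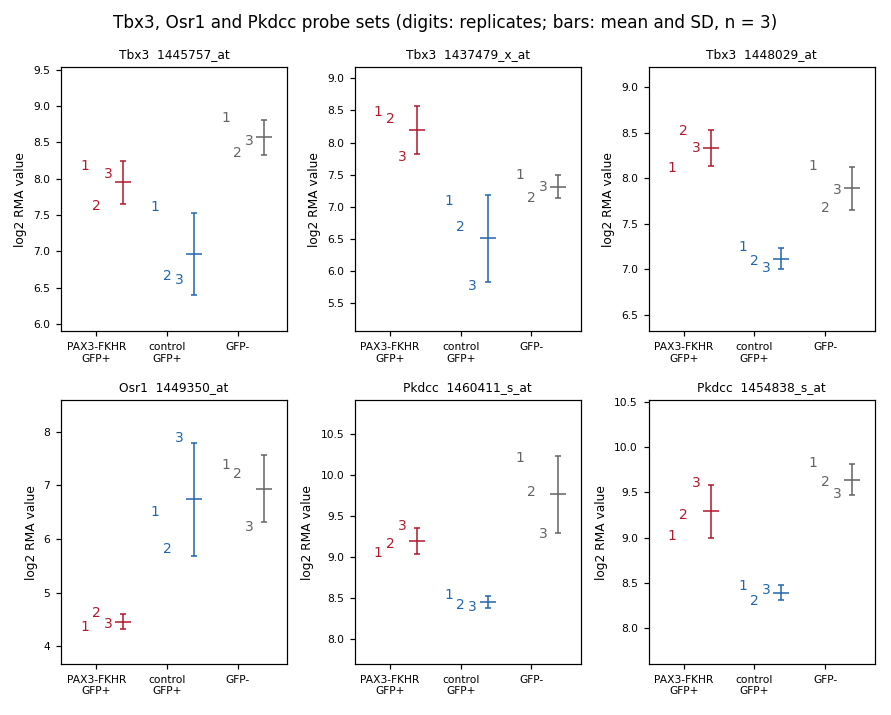
Log2 RMA values of 3 Tbx3, 1 Osr1 and 2 Pkdcc probe sets on each of the 9 arrays, with the replicate number as the symbol and bars for mean and SD (n = 3 per group); the vertical axes differ between panels. In every panel but that of Osr1 the control GFP+ arrays are the lowest group, and for Osr1 those with PAX3-FKHR lie from 4.37 to 4.62.

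The other members had differences between PAX3-FKHR GFP+ and control GFP+ cells that did not pass the test, and their confidence intervals bound them. For Msx2 the difference was 0.02 (95% confidence interval -0.38 to 0.41), for Tbx5 0.02 (-0.32 to 0.37), for Hand2 -0.03 (-0.58 to 0.52) and for Meis2 0.09 (-0.22 to 0.39). Those intervals are narrow beside the differences of Msx2, Tbx5 and Hand2 from GFP- cells. For Lhx9 the interval was wider, with a difference of 0.46 (-0.13 to 1.05). Irx3 and Irx5 were at 0.76 (0.17 to 1.36, adjusted p = 0.528) and 0.71 (0.02 to 1.41, adjusted p = 0.69). Below 0, Msx1 was at -0.63 (-1.12 to -0.14, adjusted p = 0.526), Tbx2 at -0.48 (-0.91 to -0.05, adjusted p = 0.633), Twist2 at -0.57 (-1.14 to 0.01, adjusted p = 0.708) and Pbx3 at -0.36 (-0.69 to -0.03, adjusted p = 0.652). The 7 genes of mesenchyme growth and skeleton formation were all below 0, with a median of -0.38, and 0 of 7 were called. Of 7 muscle differentiation markers, 1 was called higher with PAX3-FKHR, against 0.610% of all genes. When replicate was a block on the 6 arrays compared, 4 of 7 were. These markers had mean deviations between 1.24 and 1.89 on the PAX3-FKHR GFP+ arrays and between -0.27 and 0.94 on the control GFP+ arrays. Their part in the member differences was not tested.

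Relative to GFP- cells, PAX3-FKHR GFP+ cells had lower levels of 21 of the 34 members and higher levels of 2, against 2.79% lower and 3.90% higher among all genes. The median log2 fold change of the members was -1.50, and that of all genes was 0.052. All PAX3-FKHR GFP+ arrays lay below all GFP- arrays for 25 members and above them for 3, against 10.1% and 17.8% of all genes. Over the 71 probe sets 37 were called lower and 2 higher, against 4.0% and 2.80% of all probe sets. By role, lower calls were 4 of 5 for the limb field, 0 of 9 for proximal genes and cofactors, 3 of 5 for anterior and posterior genes, 5 of 5 for distal and dorsal genes, and 7 of 7 for mesenchyme growth and skeleton. Among the last, Twist1 was at -1.50 (adjusted p = 0.0219), Twist2 at -1.52 (adjusted p = 0.00585) and Osr1 at -2.48. The Twist1 call was lost without PAX3-FKHR GFP+ array 1 or 2 or GFP- array 1 or 2 (adjusted p between 0.0642 and 0.0992). Tbx2 had the lowest value of the members, at -2.54 (adjusted p = 4.12e-05), a level 5.80-fold lower with PAX3-FKHR than in GFP- cells. Its PAX3-FKHR GFP+ mean, 5.06, was close to the median of all array values, 5.108, and those of Osr1 (4.46) and Tbx4 (4.56) were below it. The fold changes of these genes therefore rest on a low signal in the GFP+ group.

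The higher members in PAX3-FKHR GFP+ against GFP- cells were both of the proximal group. Meis3 was at 6.88, 7.06 and 7.13 with PAX3-FKHR, 7.15, 7.11 and 6.74 in control GFP+ cells and 6.58, 6.36 and 6.04 in GFP- cells. In PAX3-FKHR GFP+ against GFP- cells the difference was 0.69 (adjusted p = 0.0427). Irx1, an Iroquois gene, was at 5.46, 5.71 and 5.47 with PAX3-FKHR, 5.55, 5.42 and 5.44 in control GFP+ cells and 4.98, 5.08 and 4.48 in GFP- cells, and PAX3-FKHR GFP+ minus GFP- cells was 0.70 (adjusted p = 0.0277). For both genes the GFP+ groups overlapped and lay above the GFP- arrays, with GFP- array 3 lowest. The Irx1 values were low in all groups, on either side of the median of all array values, 5.108. By the local pooled error test neither gene was called, at 0.7 (adjusted p = 0.117) for Meis3 and 0.49 (adjusted p = 0.286) for Irx1. The Meis3 call was lost without PAX3-FKHR GFP+ array 1, 2 or 3 or GFP- array 2 or 3 (adjusted p between 0.0669 and 0.148), and the Irx1 call without PAX3-FKHR GFP+ array 1, 2 or 3 or GFP- array 1 or 3 (adjusted p between 0.0541 and 0.121). Asb4, at -0.55 (adjusted p = 0.013), was lower and lost its call without PAX3-FKHR GFP+ array 2 or GFP- array 2 (adjusted p = 0.0741 and 0.0539), and Alx1, at -0.73 (adjusted p = 0.0198), did so without PAX3-FKHR GFP+ array 1 or 3 or GFP- array 2 (adjusted p between 0.0593 and 0.0813). Pkdcc was at -0.56 (adjusted p = 0.156) and was called lower without GFP- array 3, at -0.8 (adjusted p = 0.0255).

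Within groups the members had a larger median SD than all genes, which were not matched to them for brightness. The median SD of the members was 0.189 in PAX3-FKHR GFP+, 0.217 in control GFP+ and 0.241 in GFP- cells. That of all genes was 0.126, 0.174 and 0.14 in the same groups. The mean deviation of the 34 members from their means was -0.32, -0.56 and -0.39 on the PAX3-FKHR GFP+ arrays, -0.30, -0.49 and -0.21 on the control GFP+ arrays and 0.91, 0.83 and 0.55 on the GFP- arrays. Replicate 2 was the lowest array of its group for 19 members among the PAX3-FKHR GFP+ arrays and for 19 among the control GFP+ arrays. GFP- array 3 was the lowest GFP- array for 22 members. Blood markers moved between the GFP- arrays, with mean deviations of -1.14, 2.02 and 2.76 on arrays 1, 2 and 3, and so did ectoderm markers, with 0.07, 0.83 and 1.27. Called lower in control GFP+ relative to GFP- cells were 3 of 10 ectoderm and 1 of 7 blood markers, against 1.93% of all genes. These counts were 6 of 10 and 4 of 7 without GFP- array 1, 1 of 10 and 0 of 7 without control GFP+ array 1 or 3 or GFP- array 2 or 3, and 7 of 10 and 6 of 7 by the local pooled error test. The part of these cells in the member values was not tested.

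Other transcription factors of limb patterning, outside the 34 members, were also lower in part. Of 26 measured, 10 were called lower and 0 higher in control GFP+ relative to GFP- cells by limma. Among all genes the shares were 1.93% lower and 2.79% higher. The local pooled error test called 0 of the 26 higher. At an unadjusted p under 0.05, a level at which all genes were not counted, 1 was higher and 12 were lower. Their median log2 fold change was -0.29. Hoxd10, a posterior Hox gene, was at 6.12, 5.54 and 5.48 with PAX3-FKHR, 6.29, 6.28 and 5.67 in control GFP+ cells and 9.60, 9.10 and 9.19 in GFP- cells. The GFP- arrays stood far above the others, and control GFP+ minus GFP- cells was -3.22 (SE 0.24, adjusted p = 6.72e-05). Tbx18, a T-box gene of limb mesenchyme, was at -2.04 (adjusted p = 4.3e-05), the homeobox gene Emx2 at -1.81 (adjusted p = 6.29e-05) and Hoxd9 at -2.27 (adjusted p = 0.000155). With PAX3-FKHR, 1 of the 26 was called lower relative to control GFP+ cells, against 0.203% of all genes. When replicate was a block on the 6 arrays compared, 2 of the 26 were. Without the block the call was that of Hoxa10, a posterior Hox gene of the limb. It was at 8.25, 7.94 and 7.80 with PAX3-FKHR, 9.04, 9.06 and 8.92 in control GFP+ cells and 9.95, 9.56 and 9.76 in GFP- cells. The 3 groups were separate, the log2 fold change with PAX3-FKHR was -1.01 (SE 0.16, adjusted p = 0.0206), and the call was lost without PAX3-FKHR GFP+ array 2 or 3 or control GFP+ array 1 or 2 (adjusted p between 0.0737 and 0.117). It was also lost with averaged probe sets, at -0.62 (adjusted p = 0.132), and with only the 6 arrays compared (adjusted p = 0.069). The study lists Hoxa10 as reduced in forelimbs on these same arrays, so these values are not independent evidence of direction.

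Signalling genes of the limb bud were called lower in control GFP+ relative to GFP- cells for 14 of 23, and 1 was called higher. Of all genes, 1.93% were called lower and 2.79% higher in this comparison. Dkk1, a Wnt antagonist, was at -1.8 (adjusted p = 8.61e-05), Shh, the morphogen of the posterior margin, at -2.21 (adjusted p = 0.00186) and Bmp7 at -1.17 (adjusted p = 0.00216). The higher gene was Hhip, which binds and limits hedgehog ligands. It was at 6.46, 6.30 and 6.45 with PAX3-FKHR, 5.41, 5.45 and 5.30 in control GFP+ cells and 4.46, 4.66 and 4.26 in GFP- cells. The groups were separate, in the opposite order to that of Tbx2 and Msx1, with log2 fold changes of 1.02 (adjusted p = 0.00712) with PAX3-FKHR against control GFP+ and 0.93 (adjusted p = 0.0029) in control GFP+ against GFP- cells. With PAX3-FKHR, 1 of the 23 was called higher and 2 lower, against 0.610% and 0.203% of all genes. When replicate was a block on the 6 arrays compared, 2 of the 23 were called higher. The chemokine gene Cxcl12 was called lower, at -1.14 (adjusted p = 0.00697), and the secreted Wnt antagonist Frzb was called lower, at -1.59 (adjusted p = 0.0189). The study lists Hhip as raised and Cxcl12 and Frzb as reduced in its screen of limbs and somites, which includes these arrays. The values of these genes are therefore not independent evidence of direction. The Frzb call was lost without PAX3-FKHR GFP+ array 2 or 3 or control GFP+ array 1 or 3 (adjusted p between 0.0513 and 0.0833). It was also lost with averaged probe sets, at -0.93 (adjusted p = 0.0844), and with only the 6 arrays compared (adjusted p = 0.0614).

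Of 15 matrix and surface genes of mesenchyme, 8 were called lower and 1 higher in control GFP+ relative to GFP- cells. The shares of all genes were 1.93% and 2.79%. Without GFP- array 1 the lower count of the 15 was 5. Fn1, fibronectin, was at -0.78 (adjusted p = 0.00429), Pdgfrb, the partner receptor of Pdgfra, at -1.09 (adjusted p = 0.00631) and the proteoglycan gene Vcan at -0.66 (adjusted p = 0.00987). Postn, which encodes the matrix protein periostin, was higher, at 8.45, 8.89 and 7.34 with PAX3-FKHR, 9.19, 9.69 and 8.37 in control GFP+ cells and 5.96, 6.03 and 6.32 in GFP- cells, and control GFP+ minus GFP- cells was 2.98 (SE 0.40, adjusted p = 0.00218). Replicate 3 was the lowest of both GFP+ groups for Postn. With PAX3-FKHR, 1 of the 15 was called lower, against 0.203% of all genes. When replicate was a block on the 6 arrays compared, 2 of the 15 were called lower. The matrix gene Tgfbi was called lower, at -1.56 (adjusted p = 0.0204), a call lost without PAX3-FKHR GFP+ array 1, 2 or 3 (adjusted p between 0.0801 and 0.11) and with a block for the replicate number on all arrays. With only the 6 arrays compared it was not called either (adjusted p = 0.0592). The study lists Tgfbi as reduced in its screen, which includes these arrays, so its values are not independent evidence of direction. Fgf8, a signal of the apical ectodermal ridge counted here among the ectoderm markers, was called higher with PAX3-FKHR, at 1.14 (adjusted p = 0.00712), with 5.60, 5.64 and 5.99 in PAX3-FKHR GFP+ cells, 4.60, 4.65 and 4.55 in control GFP+ cells and 5.18, 5.58 and 5.41 in GFP- cells.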

How the data were processed

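Log2 values of 9 Affymetrix Mouse430_2 arrays were used, which the authors had obtained from two-cycle amplified RNA of sorted E10.5 forelimb bud cells by RMA and deposited as log2 per probe set. The RMA version is not given in the sources used here. Gene names came from the platform annotation, which gives 1 symbol for 34945 probe sets, several for 932 and none for 9160, and only the first kind was named. The 64 array control probe sets were set aside. A linear model with 3 groups was fitted to all 9 arrays with limma 3.58.1 (R 4.3.3), with a mean-variance trend, and p-values were adjusted over 45037 probe sets. The study's methods name a local pooled error test, which was run as an alternative. An exact permutation test of 3 against 3 arrays cannot go below p = 0.1, so it was not used. The number of arrays limits the precision. No 2 arrays were identical (highest correlation 0.9933).

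Other settings were array centring, renewed quantile normalization, no trend, array weights, 2 filters on low values, other fold change thresholds, averaging the probe sets of each gene, the replicate number as a block, and leaving out each array. In PAX3-FKHR GFP+ against control GFP+ cells, arrays of the same number deviated together (r = 0.164, 0.472 and 0.287). The labels do not state a pairing, so the main fit has no block. Calls made with the block rest on a pairing read from these same values. Steps were tested on simulated data.

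The members, roles and companion lists were chosen with earlier results of these data known. By rule, values on all arrays were given for members with a probe set called between PAX3-FKHR GFP+ and control GFP+, the 10 with the smallest adjusted p in control GFP+ against GFP- cells, and those called higher there. Osr1, the Twist, Meis and Irx genes and the second probe sets were added after their values were seen. For the lists, up to 4 genes with the smallest adjusted p against GFP- cells and up to 3 with PAX3-FKHR were named. Markers of endothelium gave 0 calls of 8 in control GFP+ against GFP- cells by limma.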

Additional observations from a re-analysis of the deposited data

How the results depend on the processing

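In control GFP+ against GFP- cells, 15 of the 21 lower members were called under every alternative run, and in PAX3-FKHR GFP+ against GFP- cells 18 of 21 were. The first count was 18 to 23 with 1 array left out and 16 to 24 otherwise, and the second 18 to 22 and 19 to 23. Of 4330 values of members and named companion genes under the alternatives, 4069 kept their side of the threshold, 195 lost a call and 66 gained one. The sign changed in 86, in none of which the value passed the test under either setting.

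With PAX3-FKHR against control GFP+ cells, 1 member (Tbx3) in place of 0 was called higher by the local pooled error test and with averaged probe sets, and 1 (Osr1) in place of 0 was called lower by both, with array weights and with the replicate block on the 6 arrays compared. Leaving out 1 array gave 0 to 1 lower. In control GFP+ against GFP- cells, 3 members in place of 1 were called higher with median centring, renewed quantile normalization, array weights, both filters and averaged probe sets, 2 without the trend and with the replicate block on all arrays, and 0 with the replicate block on 6 arrays, with only those 6 arrays, at a log2 fold change of at least 1 and by the local pooled error test. Leaving out 1 array gave 0 to 1. In PAX3-FKHR GFP+ against GFP- cells, 1 member in place of 2 was called higher with the replicate block on 6 arrays, and 0 at a log2 fold change of at least 1 and by the local pooled error test. Leaving out 1 array gave 0 to 1.

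Against GFP- cells the correlations of arrays with the same number had either sign (r = 0.0651, 0.0682 and -0.205 for control GFP+, and -0.237, 0.155 and -0.288 for PAX3-FKHR GFP+). These values cannot show whether the samples were paired, and the values with that block only describe a shared number. Over all probe sets, PAX3-FKHR against control GFP+ cells gave 178 higher and 64 lower, 337 and 151 with array weights, 82 and 22 with only the 6 arrays compared, and 281 and 268 higher with the replicate block on 6 arrays and by the local pooled error test. Leaving out array 1, 2 or 3 of the PAX3-FKHR GFP+ cells gave 107, 73 and 110 higher and 29, 31 and 25 lower, and leaving out array 1 of the control GFP+ cells gave 92 higher and 38 lower. The filters kept 23398 and 23557 probe sets and 33 of 34 members, without Alx4. The cause of these changes was not tested.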
